A study of Mus musculus with 6 samples.

Results

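The nuclear-encoded subunits of oxidative phosphorylation were described in anterior palatal mesenchyme of Wnt1Cre;Meis2f/f and wildtype mouse embryos. The genes were taken by symbol alone, as every row of the first deposited table whose name begins with Nduf (a, b, c, s or v and a digit), Uqcr, Cox4 to Cox8 or Atp5, or is Sdha, Sdhb, Sdhc or Sdhd. The rule matched 84 of 24421 rows. Of these, 37 belong by symbol to complex I, 4 to complex II, 8 to complex III, 18 to complex IV and 17 to complex V. Ndufa4 is counted with complex I by its symbol, although its protein is known as a component of cytochrome c oxidase, and Atp5s and Atp5sl are ATP synthase-related by name without being subunits.

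Oxidative phosphorylation passes electrons from NADH through complex I and from succinate through complex II to ubiquinone, then through complex III and cytochrome c to complex IV, where oxygen is reduced. Complexes I, III and IV pump protons across the inner mitochondrial membrane, and complex V, the ATP synthase, uses the gradient to make ATP. Most subunits are encoded in the nucleus and imported, and the genes of many are known targets of the transcription factors NRF1, GABP and YY1. The core subunits that mitochondrial DNA encodes were not analysed here.

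The mutant embryos carried floxed Meis2 alleles and Wnt1Cre, a recombinase driven by a Wnt1 transgene and active in the neural crest, which gives rise to most of the palatal mesenchyme. The others were wildtype, and the labels do not say that they carried Wnt1Cre or a floxed allele. All were on the C57BL/6 background at E12.5, and the palatal epithelium had been removed with Dispase II. There were 3 mutant and 3 wildtype libraries, which the labels call biological replicates. No source used here says whether tissue of several embryos was pooled. In bulk tissue, fewer cells of a type and less RNA per cell cannot be told apart.

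The deposited tables are comparisons without values per library. The base mean of a gene is the mean over libraries of reads divided by each library's size factor, so whole reads per library were solved from the base means of 2 tables that share libraries. Exactly 1 set of whole reads met both base means for 13650 of 13664 genes searched, or 99.9%. The libraries are called A, B and C within each genotype, from the largest size factor to the smallest. The letters carry no replicate number and do not pair a mutant with a wildtype library. The recovered genes held 5681961 to 10297254 reads per library, a lower bound on depth because the strongest genes could not be resolved. Values per library are normalised reads, that is recovered reads divided by the size factor. Meis2, the targeted gene, had 1250, 1378 and 1218 normalised reads in mutant libraries A, B and C, against 1526, 1549 and 1695 in wildtype libraries A, B and C. The authors' deposited table of 6 libraries gives it a log2 fold change of -0.28 ± 0.09 (SE, DESeq2 adjusted p = 0.0743), and the authors' deposited table of 4 libraries gives -0.33 (adjusted p = 0.0213). The sign of every fold change here was read from Meis2 being lower in the mutant.

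Of the 84 genes, 77 had a base mean of at least 10: 35 in complex I, 4 in complex II, 8 in complex III, 13 in complex IV and 17 in complex V. Reads per library were recovered for 75 of these 77, all but Atp5a1 and Atp5b, the most abundant by read count. The 7 genes under a base mean of 10 were Ndufa4l2, Cox6a2, Cox7a1, Cox7b2, Cox8b, Cox8c and Ndufs5. Ndufs5, a complex I subunit used in every cell type, is listed at 0 in the table. No such value was read as absence of the transcript. The 84 genes together made up 0.511% of the summed base means.

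Proximal promoters of 4 of these genes are shown because they differ in the motifs they hold: Atp5k has the NRF1 letters, Sdhd the GABP letters, and Cox7b and Sdha none. Cox7b has the lowest fold change of the 77 matched genes measured and Sdha one near 0. Each sequence is the 150 bases before the annotated RefSeq start, 5′ to 3′ on the gene's strand (GRCm38.p6), and capitals mark a match to a searched motif.
Cox7b (chrX:106015550-106015699, plus strand): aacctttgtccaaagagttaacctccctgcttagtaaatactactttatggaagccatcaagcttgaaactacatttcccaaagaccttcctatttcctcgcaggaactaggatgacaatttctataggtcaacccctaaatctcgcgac
Atp5k (chr5:108434400-108434549, minus strand): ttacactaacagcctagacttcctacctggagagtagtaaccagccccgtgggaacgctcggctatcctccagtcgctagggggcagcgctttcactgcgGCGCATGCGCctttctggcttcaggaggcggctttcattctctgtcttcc
Sdhd (chr9:50603850-50603999, minus strand): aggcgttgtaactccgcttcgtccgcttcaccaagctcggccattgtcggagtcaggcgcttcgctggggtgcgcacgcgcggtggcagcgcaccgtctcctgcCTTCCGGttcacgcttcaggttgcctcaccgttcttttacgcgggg
Sdha (chr13:74350241-74350390, minus strand): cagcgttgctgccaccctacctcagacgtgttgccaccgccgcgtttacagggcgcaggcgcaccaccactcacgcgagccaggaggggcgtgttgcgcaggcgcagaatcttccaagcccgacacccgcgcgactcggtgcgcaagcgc

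The motifs searched on both strands were GCGCATG for NRF1, CCGGAAG for GABP and ATGGCGG for YY1, the cores of their longer known sites, in windows of 250 bases before to 50 bases after each start. RefSeq windows matched 66 of the 84 genes, in 71 windows. The NRF1 motif lay in 18.3% of these windows, against 4.80% of 21263 windows of protein-coding genes. The GABP motif lay in 22.5% of the subunit windows, against 11.6% of all windows. The YY1 motif lay in 15.5% of the subunit windows, against 5.25% of all windows. At least 1 of the 3 motifs lay in 46.5% of the subunit windows, against 19.2% of all windows. In Atp5k the NRF1 letters occur on both strands of 1 palindrome, where the matches overlap. The windows were not matched on base composition, and a match is a run of letters, not a bound site. The 13 measured genes with an NRF1 match had a median log2 change of -0.15, and the 49 without one also had -0.15, both computed from the authors' deposited table.

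The question the comparison addresses here is whether loss of Meis2 in the neural crest altered the level of the respiratory chain transcripts. No subunit passed the test. The authors' deposited table of 6 libraries gives a DESeq2 adjusted p under 0.05 to 0 of the 77 measured genes, where it does so for 434 of 14942 genes (2.9%). At an unadjusted p under 0.05, 7 of the 77 were lower in the mutant and 0 were higher. Of all 14580 genes at that base mean, 759 (5.21%) were lower and 796 were higher by the same measure. The limma fit on the recovered reads likewise called 0 of 75, where it called 2.26% of 13650 genes, and 7 of 75, all lower in the mutant, had an unadjusted p under 0.05, where 12.9% of all genes did in either direction. The lowest adjusted p of the 77 was 0.216, for Cox7b, in the authors' deposited table.

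Fold changes, given as the log2 change of mutant over wildtype, were small and lay mostly on one side of 0. By the authors' deposited table the 77 genes had a median of -0.15, a ratio of mutant to wildtype of 0.903, and 74 were below 0. The median over all genes was -0.01, with 54.0% below 0. Values ran from -0.29 (Cox7b) to 0.09 (Atp5sl) and standard errors from 0.0863 to 0.147. The 95% interval (1.96 SE) included 0 for 70 of the 77 genes, and over all 77 the intervals spanned -0.53 to 0.33. To be called, a subunit would have needed an absolute log2 change of 0.27 to 0.47, depending on its standard error. The moderation draws fold changes toward 0, most strongly where reads are few.

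**Figure D1:**
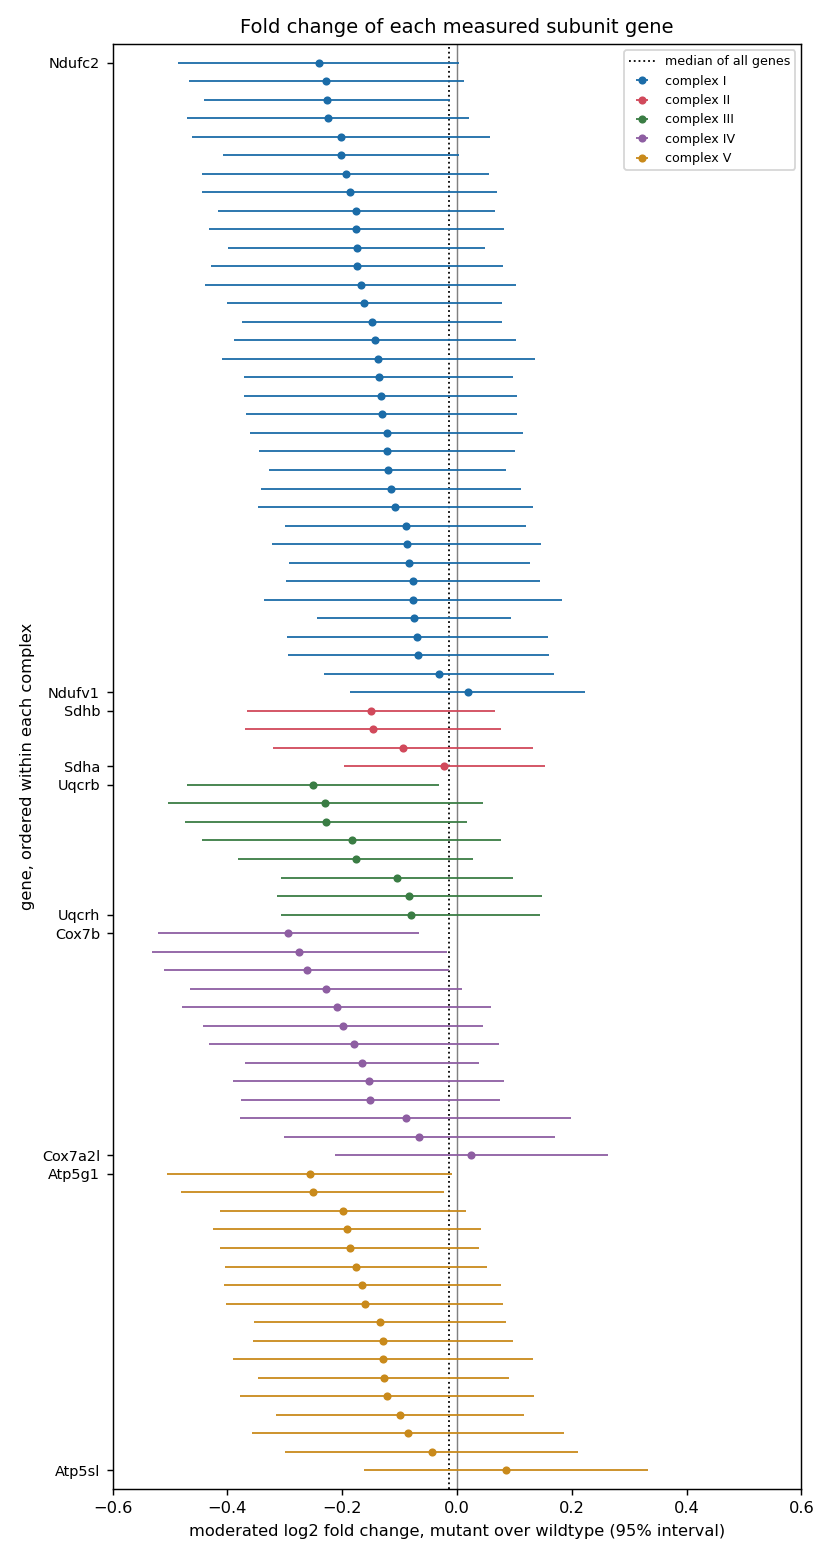
Moderated log2 fold change, mutant over wildtype (x axis), of each of the 77 measured genes (y axis, by complex, with the lowest and highest gene of each complex named), from the authors' deposited table of 6 libraries. Points are the estimates, bars the 95% intervals and the dotted line the median of all genes; 74 points lie below 0 and 70 intervals include 0.

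The values per library show how that shift was spread over the libraries. Each gene's log2 level was set against its mean over the 6 libraries, and the median over the 75 genes was 0.01 in mutant library A, -0.37 in mutant library B and 0.09 in mutant library C. In the wildtype libraries the medians were 0.20 in A, -0.09 in B and 0.18 in C, while the same medians over all genes were within 0.01 of 0 in every library. Mutant library B stood below the other 5, and wildtype library B lay below mutant libraries A and C. Mutant libraries A and C in turn lay below wildtype libraries A and C.

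Mutant library B had the lowest value of all 6 libraries for 71 of the 75 genes (94.7%), against 29.3% of all genes. The exceptions were Ndufa12, Cox6b2, Atp5s and Atp5sl. Wildtype library B lay below both other wildtype libraries for 67 of the 75 genes (89.3%), against 36.3% of all genes. The highest value was in wildtype library A for 36 genes (48%), against 17.5% of all genes. It was in wildtype library C for 33 (44%), against 20.8% of all genes. All 3 mutant libraries lay below all 3 wildtype libraries for 2 genes, Cox7b and Atp5g1, where 8.96% of all genes did so, and they lay above for 0 genes, where 8.85% of all genes did. The summed normalised reads of the 75 genes were 56491, 44395 and 59385 in mutant libraries A, B and C, against 64117, 52868 and 63499 in wildtype libraries A, B and C. The genotypes overlapped in this sum, because mutant libraries A and C exceeded wildtype library B. Mutant libraries A and C both lay below wildtype libraries A and C in it.

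**Figure D2:**
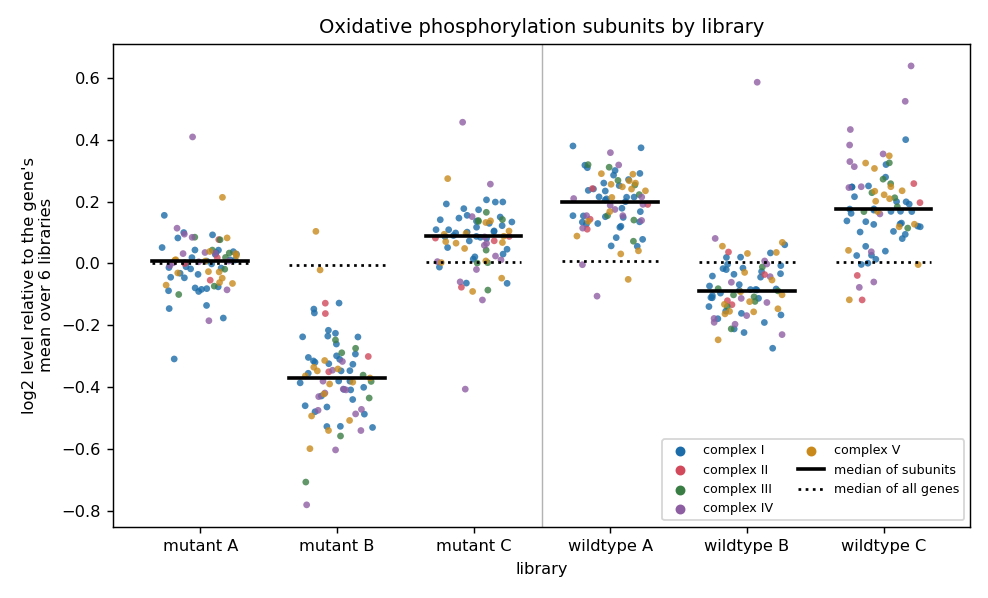
Log2 level of each of 75 genes relative to its own mean over the 6 libraries (y axis), by library (x axis), coloured by complex. Solid bars are medians of these genes and dotted bars medians of all genes; the subunits' median is -0.37 in mutant library B and between -0.09 and 0.20 in the other 5 libraries.

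The size of the shift depended on which libraries were kept. With limma on all 6 libraries the median log2 change of the 75 genes was -0.20 and 72 were below 0. Without mutant library B the median was -0.05 and 62 were below 0, while the median of all genes was -0.01 and 52.1% were below 0. Without wildtype library B the median was -0.30, and without mutant library C it was -0.28. It was -0.25 without mutant library A, -0.14 without wildtype library A and -0.16 without wildtype library C. The limma fit called 0 subunits in each of the 6 fits that left out a library. The fit without mutant library B keeps wildtype library B, the lowest of the wildtype libraries. The authors' deposited table of 4 libraries leaves out both. In that table the median of the 77 genes was -0.12, close to the -0.15 of all 6 libraries, 71 were below 0, 0 had an adjusted p under 0.05 (2.3% of all genes did) and 8 were lower at an unadjusted p under 0.05 (4.73% of all genes). The 2 tables share 4 libraries and are not independent.

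**Figure D3:**
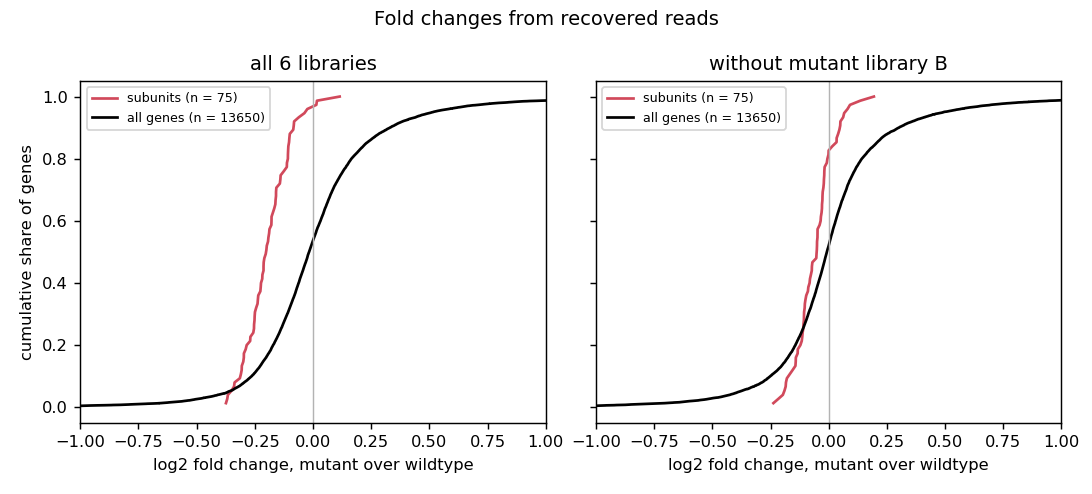
Cumulative share of genes (y axis) by limma log2 change, mutant over wildtype (x axis), for the 75 subunits and all 13650 genes, with all 6 libraries (left) and without mutant library B (right). The subunits' median is -0.20 on the left and -0.05 on the right, where 62 of 75 subunits and 52.1% of all genes lie below 0.

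Complex I oxidises NADH. The 35 measured genes had a median log2 change of -0.14, and 34 of them were below 0 in the authors' deposited table. Their summed normalised reads were 21147, 17184 and 22688 in mutant libraries A, B and C, against 24063, 20054 and 23289 in wildtype libraries A, B and C. The lowest fold change was that of Ndufc2, an accessory subunit of the membrane arm, with 512, 394 and 578 normalised reads in mutant libraries A, B and C, against 709, 513 and 612 in wildtype libraries A, B and C. The groups overlapped, since mutant library C exceeded wildtype library B. The authors' deposited table gives it a log2 change of -0.24 ± 0.12 (SE) and an adjusted p of 0.486.

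At the other end of complex I was Ndufv1, the core subunit that binds FMN and accepts electrons from NADH. It had 1467, 1177 and 1563 normalised reads in mutant libraries A, B and C, against 1440, 1289 and 1411 in wildtype libraries A, B and C. Mutant library C was the highest and mutant library B the lowest of the 6. The authors' deposited table puts it at 0.02 ± 0.10 on the log2 scale (SE, adjusted p = 0.976). Ndufv2, an iron-sulfur core subunit and Ndufv1's partner, was the only complex I gene under an unadjusted p of 0.05: the authors' deposited table gives 0.0387 and a log2 change of -0.23. Its normalised reads were 732, 665 and 879 in mutant libraries A, B and C, against 955, 818 and 962 in wildtype libraries A, B and C, which overlap.

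Core and accessory subunits of complex I were set apart after their values had been seen. The 7 core subunits, which carry the redox centres, had a median log2 change of -0.08, computed from the authors' deposited table. The 28 other genes, counted as accessory and including Ndufa4 by its symbol, had -0.15 there. Ndufs1, a core subunit with iron-sulfur clusters, had a value of -0.08 in the authors' deposited table. All 28 genes counted as accessory lay below 0 in the authors' deposited table of 6 libraries, and none was called there.

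Complex II is also an enzyme of the citric acid cycle. The 4 genes had a median log2 change of -0.12 in the authors' deposited table. Sdhb, the iron-sulfur subunit, had the lowest value in the authors' deposited table, -0.15 ± 0.11 (SE, adjusted p = 0.733). It had 1066, 898 and 1176 normalised reads in mutant libraries A, B and C, against 1264, 1018 and 1269 in wildtype libraries A, B and C. Sdha, the flavoprotein that oxidises succinate, had 2733, 2468 and 2838 normalised reads in mutant libraries A, B and C, against 2913, 2632 and 2626 in wildtype libraries A, B and C. Mutant libraries A and C thus lay within the wildtype range for Sdha, and its log2 change was -0.02 ± 0.09 (SE) in the authors' deposited table of 6 libraries and 0.01 in that of 4.

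Complex III passes electrons from ubiquinol to cytochrome c. All 8 genes had a fold change below 0 in both of the authors' deposited tables, with a median of -0.18 in that of 6 libraries, and none was called. Uqcrb, a small subunit near a ubiquinone site, had 523, 472 and 528 normalised reads in mutant libraries A, B and C, against 676, 520 and 678 in wildtype libraries A, B and C. The mutant values lay close together, and wildtype library B fell between them. The authors' deposited table gives it a log2 change of -0.25 ± 0.11 (SE) and an adjusted p of 0.345. In the limma fit its value was -0.29 with all 6 libraries and -0.24 without mutant library B. Uqcrh, the hinge protein that binds cytochrome c1, had the value nearest 0, -0.08, in the authors' deposited table. Uqcrfs1, the Rieske iron-sulfur protein and a redox subunit, had -0.08 in the authors' deposited table, and the core proteins Uqcrc1 and Uqcrc2 had -0.10 and -0.18 there.

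Complex IV reduces oxygen, and its nuclear-encoded subunits surround a catalytic core made in the mitochondrion. The 13 measured genes had a median log2 change of -0.18 in the authors' deposited table, and their summed normalised reads were 8926, 6459 and 8995 in mutant libraries A, B and C, against 9949, 8132 and 10516 in wildtype libraries A, B and C. Cox7b, a small transmembrane subunit, had the lowest fold change of the 77 genes. It had 864, 619 and 833 normalised reads in mutant libraries A, B and C, against 1008, 873 and 1091 in wildtype libraries A, B and C. All mutant values were below all wildtype values, by a margin of few reads between mutant library A and wildtype library B. The authors' deposited table gives a log2 change of -0.29 ± 0.12 (SE) and an unadjusted p of 0.0112, and the limma estimate was -0.37 with 6 libraries and -0.22 without mutant library B.

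Cox5a and Cox6c, structural subunits, stood at -0.27 and -0.26 on the log2 scale by the authors' deposited table of 6 libraries. By the authors' deposited table of 4 libraries Cox6c reached -0.30 with an adjusted p of 0.0876, the lowest of any matched gene in either table. Its normalised reads were 1011, 687 and 878 in mutant libraries A, B and C, against 1189, 831 and 1243 in wildtype libraries A, B and C. Mutant libraries A and C exceeded wildtype library B, so the genotypes overlapped. Cox7a2l, which is known to join complexes III and IV in supercomplexes, had 791, 575 and 873 normalised reads in mutant libraries A, B and C, against 791, 646 and 750 in wildtype libraries A, B and C. Its log2 change was 0.03 ± 0.12 (SE) in the authors' deposited table.

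Complex V makes ATP. The 17 genes had a median log2 change of -0.13 in the authors' deposited table, or -0.16 without Atp5s and Atp5sl. Atp5g1, one of 3 genes for the proton-carrying c subunit, had 315, 215 and 313 normalised reads in mutant libraries A, B and C, against 382, 328 and 351 in wildtype libraries A, B and C. The genotypes did not overlap, and the authors' deposited table gives a log2 change of -0.26 ± 0.13 (SE, adjusted p = 0.447). The other c subunit genes, Atp5g3 and Atp5g2, had -0.19 and -0.04 in the authors' deposited table, and their libraries overlapped between genotypes. Atp5k, subunit e of the membrane part, had 640, 500 and 631 normalised reads in mutant libraries A, B and C, against 768, 608 and 817 in wildtype libraries A, B and C. Mutant libraries A and C exceeded wildtype library B for Atp5k too.

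Atp5b and Atp5a1, the catalytic head's beta and alpha subunits, stood at -0.13 and -0.10 on the log2 scale by the authors' deposited table. Atp5sl had the highest log2 change of the 77 genes in the authors' deposited table, 0.09 ± 0.13 (SE, adjusted p = 0.913). It had 177, 199 and 204 normalised reads in mutant libraries A, B and C, against 179, 166 and 191 in wildtype libraries A, B and C. Mutant library B was not low for this gene.

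**Figure D4:**
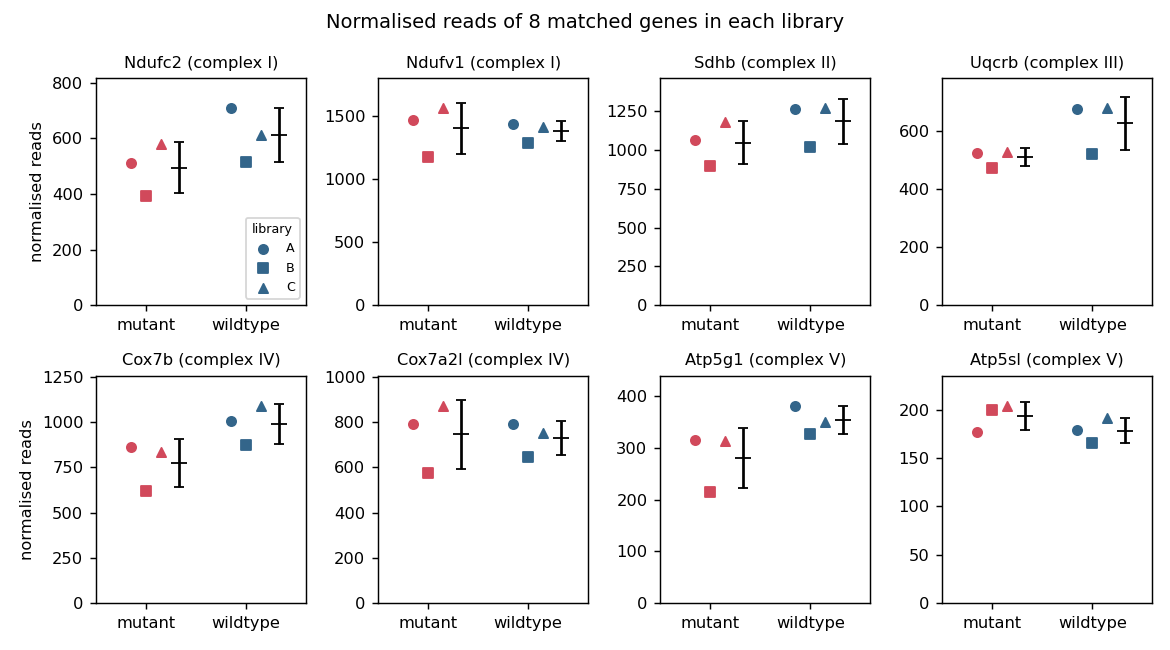
Normalised reads (y axis) in each library for 8 genes, with mutant libraries on the left and wildtype libraries on the right of each panel; marker shapes give libraries A, B and C, and black bars the mean and SD of 3 libraries. Mutant and wildtype values do not overlap for Cox7b and Atp5g1 and overlap for the other 6 genes.

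Complex IV has pairs of isoforms, a widespread one and one known mainly from muscle, testis or lung. Levels were compared per kilobase of transcript, as normalised reads divided by the median length of the annotated protein-coding transcripts. Cox4i1 averaged 2910 normalised reads per kilobase over the 6 libraries and Cox4i2, known from lung, 15.1. Cox6b1 averaged 1177 per kilobase and Cox6b2, known from testis, 78.1. Cox7a2 averaged 1440 per kilobase and Cox7a1, the heart and muscle form, 20.9. Cox8a averaged 1215 per kilobase and Cox8b, another heart and muscle form, 8.47. In complex I, Ndufa4 averaged 2307 per kilobase and Ndufa4l2 1.93.

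Several tissue-restricted forms of the chain had few or no reads in both genotypes. Cox6a2, a heart and muscle form, had 3 reads in all 6 libraries together, all in mutant libraries A and C, while Cox6a1 averaged 1137 normalised reads per kilobase. Cox7b2 had 2 reads, both in mutant library A, and Cox8c had 1, in wildtype library B. Cox7a1 had 4.17, 15.1 and 9.78 normalised reads in mutant libraries A, B and C, against 6.39, 11.8 and 7.75 in wildtype libraries A, B and C. These overlap, and its log2 change was 0.02 in the authors' deposited table. Lengths of the annotated Atp5g1 transcripts differ too widely for a comparison per kilobase with Atp5g2 and Atp5g3.

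Markers of muscle, macrophages, neurons and glia were unequal between mutant and wildtype libraries. The authors' deposited table called higher 12 of 22 measured muscle markers, whose median was 0.48 on the log2 scale, and 3 of 13 macrophage markers, where 1.75% of all genes were. The authors' deposited table called lower 4 of 9 neuron markers and 1 of 8 Schwann and glia markers, where 1.16% of all genes were. Fewer were called by the authors' deposited table of 4 libraries: 5 muscle markers (median 0.26) and 2 macrophage markers higher, 1 neuron marker lower and 0 Schwann and glia markers. Of all genes, that table of 4 libraries called 2.3%, 191 of them higher and 144 lower. The summed normalised reads of 15 muscle markers were 827 to 1682 in mutant libraries and 418 to 494 in wildtype libraries. Those of 13 macrophage markers were 1232 to 1415 in mutant and 819 to 1007 in wildtype libraries, and those of 9 neuron markers 444 to 497 in mutant and 665 to 1219 in wildtype libraries. Those of 8 Schwann and glia markers were 1192 to 1347 in mutant and 1389 to 1873 in wildtype libraries. Single libraries stood out within these ranges. Mutant library C was highest for 13 of 15 muscle markers, at 1682 against 827 and 943 in mutant libraries A and B. Wildtype library B was highest for 9 of 9 neuron markers, at 1219 against 715 and 665 in wildtype libraries A and C. It was also highest for 6 of 8 Schwann and glia markers. The adult globins Hbb-bs, Hbb-bt, Hba-a1 and Hba-a2 are listed at 0, and no erythroid, epithelial or endothelial marker was called. The part of these cells in the subunit values was not tested.

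Mesenchyme markers Prrx1, Twist1 and Pdgfra had base means of 10660, 1636 and 16535 in the authors' deposited table. Of 11 palate mesenchyme markers, the authors' deposited table of 6 libraries called 3 lower and 1 higher. Over all genes it called 1.16% lower and 1.75% higher. Lower were Shox2 (-0.90, adjusted p = 4.36e-10), Twist1 (-0.45, adjusted p = 0.00859) and Prrx1 (-0.31, adjusted p = 0.0204), by the authors' deposited table. Higher was Pax9 (0.46, adjusted p = 0.00077), by the authors' deposited table. The other 7 were not called there. The authors' deposited table of 4 libraries called 3 lower and 2 higher, where it called 2.3% of all genes. Pdgfra was called higher only in that table (0.23, adjusted p = 0.0473). Mutant library B, lowest for the subunits, lay between mutant libraries A and C in summed muscle markers, at 943 normalised reads.

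Transcript length moved with the library differences. The subunits are short: the median length of 76 of the 77 genes was 671 bases, 73 of them lay under the median of all genes, and that median was 2252 bases. In mutant library B the median relative log2 level of all genes was -0.12 in the shortest decile of genes and 0.08 in the longest. In wildtype library A it was 0.07 in the shortest decile and -0.07 in the longest. The subunits' median in mutant library B, -0.37, lay below that of every decile of genes by length. With a trend on length removed from the authors' deposited fold changes, the subunits' median was -0.10. The part of RNA quality or amplification in this was not tested.

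**Figure D5:**
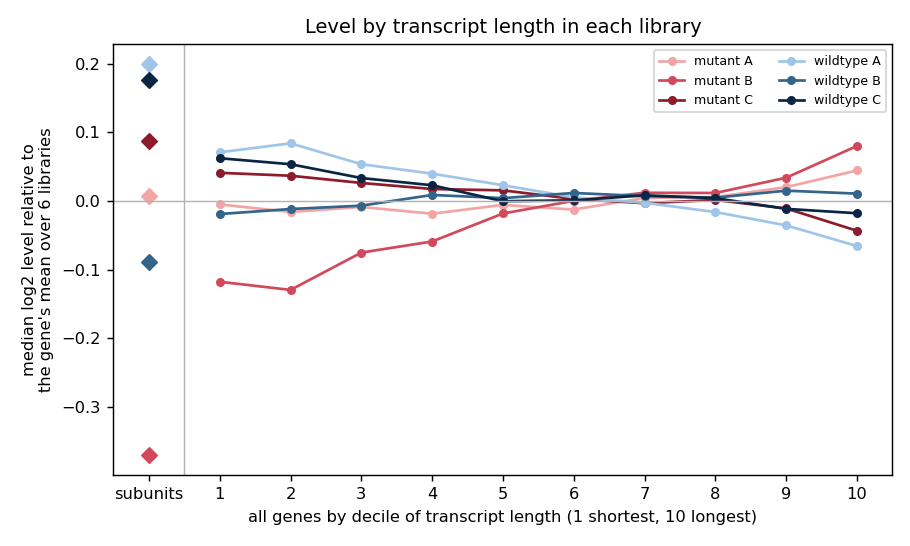
Median log2 level relative to each gene's mean over 6 libraries (y axis) for all genes in deciles of transcript length (lines) and for the 75 subunits (diamonds at left), by library. In mutant library B the shortest decile is at -0.12, the longest at 0.08 and the subunits at -0.37.

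Medians of the other mitochondrial and ribosomal lists were also below 0, where 54.0% of all genes were below 0 and their median was -0.01. A further 5 measured genes, listed as subunits that the rule does not match, all lay below 0 by the authors' deposited table. The median of these 5 was -0.23 on the log2 scale. Atpif1, at -0.12, is counted among the 5, although by name it is an ATPase inhibitor and not a subunit. The lowest of the 5 was Ndufab1, the acyl carrier protein bound to complex I, for which the authors' deposited table gives -0.38 ± 0.13 (SE, adjusted p = 0.0934). It had 198, 157 and 224 normalised reads in mutant libraries A, B and C, against 284, 233 and 303 in wildtype libraries A, B and C, with no overlap. Of all genes, the authors' deposited table called 2.9%, and a count of 0 in a short list is near that share. It called 0 of 45 assembly factors (median -0.09, 40 below 0). It also called 0 of 18 genes of the citric acid cycle and pyruvate dehydrogenase (median -0.09, 16 below 0). Of 19 electron carrier and nucleotide exchange genes it called 0 (median -0.11, 16 below 0). Slc25a5, an ADP/ATP carrier of the inner membrane, had the lowest value of these carriers, -0.27, in the authors' deposited table. It had 1529, 1075 and 1538 normalised reads in mutant libraries A, B and C, against 1836, 1481 and 1899 in wildtype libraries A, B and C.

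Ribosomal protein genes had like values. By the authors' deposited table the median log2 change was -0.12 for 77 mitochondrial ribosomal protein genes, 74 of them below 0, and -0.12 for 79 cytosolic ones, 73 of them below 0, and 0 of either were called. Mutant library B was the lowest library for 79.2% of the 77 mitochondrial ribosomal genes and for 91.4% of the 35 cytosolic ones with recovered reads. No test of a difference between these lists and the subunits was run.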

How the data were processed

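Libraries were made from total RNA by reverse transcription, amplification and TruSeq v2 preparation, per the labels' protocols. HISAT2, featureCounts and DESeq2, with builds GRCm38 and mm10, are named in the submitters' processing notes; the sources used here give neither versions nor strand settings, so overlapping and antisense genes cannot be told apart. The 3 deposited tables hold the authors' DESeq2 comparison. Base means, deposited by the authors, are a non-negative signal. The fold change is on the log2 scale, moderated by the authors. Its standard error and the Wald statistic are scores deposited by the authors. Each p-value and its Benjamini-Hochberg adjustment are the authors' own, as deposited. The third table repeats 1613 rows of the first.

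The series text describes each table as a pair of libraries of the same number. Genes with 1 read in all took 6 levels of base mean in the first table (3 of each sign, tolerance 2e-06) and 4 in the second, so the first rests on 6 libraries and the second on 4 of them. Whole reads were solved from these levels, up to a base mean of 3000 in the 4-library table and within a set range around equal levels; the method was checked on simulated reads. Genes beyond these limits, 7 muscle markers among them, have no values per library. Recovered and deposited fold changes had the same sign for 5158 of 5158 genes with an absolute Wald statistic over 1. Recovered reads were tested with limma 3.58.1 (R 4.3.3, trend) on log2(normalised reads + 1), chosen after seeing the data. Other steps used Python 3.11.15, pandas 2.3.3, statsmodels 0.14.6 and GENCODE vM21 lengths. Genes were summarised at a base mean of at least 10. Named genes were Meis2, those called, the lowest and highest of each complex or list, and isoform pairs; other genes are named as examples chosen after their values were seen. The promoter motifs were chosen after seeing the data, and the genes and lists with earlier results of these data known.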

Additional observations from a re-analysis of the deposited data

How the results depend on the processing

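The count of called subunits at an adjusted p under 0.05 was 0 with 6 libraries and 0 with 4. It was also 0 in the 6-library table at an adjusted p under 0.1 (in the 4-library table Cox6c, at 0.0876, falls under that limit), with adjustment over every gene with a p or over genes passing the base mean filter, and with limma, with or without each library. The subunits' median log2 fold change ranged over the other settings from -0.15 to -0.10, with limma at -0.20. Leaving out a library in the limma fit gave -0.30 to -0.05 for all subunits, and for complex IV -0.39 (without wildtype library B) to -0.090 (without mutant library B), against -0.18 in the deposited table and -0.27 with limma on 6 libraries; the cause was not tested. Of the named genes, 4 reversed between the tables, none of them called: in the 4-library table Cox6b2 had 0.043, Cox7a1 -0.0028, Cox8b -0.022 and Sdha 0.012. Meis2 was called in the 4-library table only, at -0.33 (adjusted p = 0.0213). Marker calls of the 4-library table against the 6-library table were 5 against 12 for muscle, 1 against 4 for neurons and 0 against 1 for glia. They were 2 against 3 for macrophages, and 2 against 1 for palate mesenchyme markers called higher. Of the 79 measured cytosolic ribosomal genes, 2 were called in the 4-library table, where 2.3% of all genes were. These were Rpl17 (-0.37, adjusted p = 0.00348) and Rps25 (-0.27, adjusted p = 0.027), both lower. The other 127 comparisons of a setting with its result kept their direction and their side of the threshold, or moved by less than the spread between libraries. For medians that spread was 0.207, the pooled SD of library medians within genotype. It is larger than the subunits' median of -0.15 itself, so a median could fall to near 0 and still be counted here. The subunits' -0.05 without mutant library B was counted so. No paired analysis was possible because the deposited tables carry no replicate numbers for their libraries. The strongest genes have no values per library. With 3 libraries a genotype, a subunit needed an absolute log2 fold change of 0.27 to 0.47 to be called, depending on its standard error.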

Other observations

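Among 22 measured regulators of mitochondrial biogenesis, 0 were called in the authors' deposited table, where 2.9% of all genes were. The median log2 fold change of these regulators was -0.05, with 13 below 0 and 9 above. Ppargc1a, a coactivator of mitochondrial biogenesis, had the lowest value of that list, -0.27 ± 0.15 (SE), with an adjusted p of 0.544, by the authors' deposited table. It had 59.8, 73.4 and 48.9 normalised reads in mutant libraries A, B and C, against 79.9, 98.2 and 73.6 in wildtype libraries A, B and C. Mutant library B was not low for this gene, and it lay just under wildtype library C. Esrrg, a nuclear receptor that works with it, had the highest value, 0.24, in the authors' deposited table.

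Mitochondrial protein import had 23 measured genes. The authors' deposited table called 0 of them, where it called 2.9% of all genes, and put their median at -0.09. Hspe1, a chaperonin of the mitochondrial matrix, had the lowest value, -0.29 (adjusted p = 0.33), in the authors' deposited table of 6 libraries. Its normalised reads were 831, 636 and 987 in mutant libraries A, B and C, against 1191, 835 and 1153 in wildtype libraries A, B and C. Mutant library C exceeded wildtype library B, so the genotypes overlapped.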
